A study of Mus musculus with 2 samples.

Results

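Voltage-gated sodium and calcium channels were described in RNA-seq of the telencephalon, the front part of the embryonic brain, set against the whole body. Members were chosen by name, as genes for the alpha and beta subunits of sodium channels and the alpha1, alpha2delta, beta and gamma subunits of calcium channels. The rule matched 42 of 43437 rows of the gene table. These rows hold 39 gene symbols, because Cacng6, Cacng7 and Cacng8 each have a second identifier that was listed at 0 in both libraries and was not used further. A further sodium channel alpha gene, Scn2a1, carries an older symbol that the rule does not match, and it is described separately.

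Both groups were wild-type fetuses of ICR, an outbred mouse stock, at E12.5, with no treatment. The telencephalon and the whole body were each represented by 1 library. The labels give neither the number nor the sex of the fetuses, nor whether the whole body included the head. A single library per group leaves no replicate spread to test against, and every value describes these 2 libraries.

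These channels are membrane proteins that open when the membrane depolarises. Sodium channel alpha subunits form the pore that starts the action potential, and the beta subunits are small adhesion-like partners that modify gating and placement. In calcium channels the alpha1 subunit forms the pore and sets the current type, the alpha2delta and beta subunits bring it to the membrane, and the gamma family holds both true channel subunits of skeletal muscle and the TARPs, which accompany AMPA-type glutamate receptors in neurons. Most of the genes are known from differentiated neurons, skeletal muscle or heart.

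Levels are FPKM, the fragments assigned to a gene scaled to transcript length and sequencing depth, so they can be set side by side between genes. A log2 ratio is that of FPKM + 1 in telencephalon to FPKM + 1 in whole body. The added 1 shrinks the ratio of weak genes, and folds are given on FPKM without it. A gene counted as measured at 1 FPKM or more in either library, and as higher or lower past 2-fold on the FPKM + 1 scale. The steps between low FPKM values corresponded to about 22700000 fragments in telencephalon and 29200000 in whole body. Fragment numbers given below are estimates from these depths over isoforms of 500 bases or more, and their 95% exact binomial intervals cover counting error only. Of 9 measured neuron markers 9 were higher in telencephalon (summed level 1008 FPKM, against 263 in whole body). Of 10 measured skeletal muscle markers 10 were lower (2.21 against 323 FPKM), as were 10 of 10 measured cardiac markers (4.04 against 587 FPKM). Of 7 progenitor markers 6 were higher in telencephalon and none was lower (1526 against 1010 FPKM). Of all 14987 measured genes 9.39% were higher and 21.2% lower, and these shares also stand beside the marker counts given below.

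Of 17 measured channel genes known from neurons 9 were at least 2-fold higher in the telencephalon library and none was lower. Among 8 measured genes known from muscle or heart, 3 were at least 2-fold lower in it and 5 lay within 2-fold. Those 3 are known from skeletal muscle channels. Of the 39 genes 32 were measured. Of these, 10 were at least 2-fold higher in telencephalon, or 31.2%, beside 9.39% of all 14987 measured genes. The 10 include the TARP genes Cacng2, Cacng4, Cacng7 and Cacng8, which accompany AMPA-type glutamate receptors and were counted in the neuronal group. Another 4 of the 32 were at least 2-fold lower, beside 21.2% of all measured genes. The other 18 lay within 2-fold. The 4 lower genes were Cacna1s, Cacng1 and Cacng6 of the muscle and cardiac group, and Cacna1g (log2 ratio -2.61). Cacna1g, known from brain and heart, was placed in a group of several tissues. That group had 5 measured genes, with Cacnb3 higher and Cacna1g lower. Cacna1c, Cacna2d1 and Cacnb1, which brain also uses, were placed in the muscle and cardiac group. The counts by group depend on this placing, made with earlier results of these data known. The median log2 ratio of the 32 was 0.70, beside -0.16 over all measured genes. A gene that reached 1 FPKM only in its higher library had to differ, so these counts describe the measured genes and not the family as a whole.

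By the tissue each subunit is best known from, the neuronal group held 18 genes. Of its 17 measured genes 8 lay within 2-fold on the FPKM + 1 scale. Without the added 1, Cacnb4 (2.78-fold), Cacng3 (2.49-fold) and Scn8a (2.12-fold) among those 8 were past 2-fold. The median log2 ratio of the 17 was 1.10 (0.95 over all 18). The neuron markers had a median log2 ratio of 1.96. The muscle and cardiac group held 9 genes, 8 of them measured, with none higher, 3 lower and 5 within 2-fold. Its median log2 ratio was -0.32, beside -4.29 for the skeletal muscle markers and -3.58 for the cardiac markers. In bulk RNA, fewer cells of a type and less RNA per cell cannot be told apart.

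**Figure D1:**
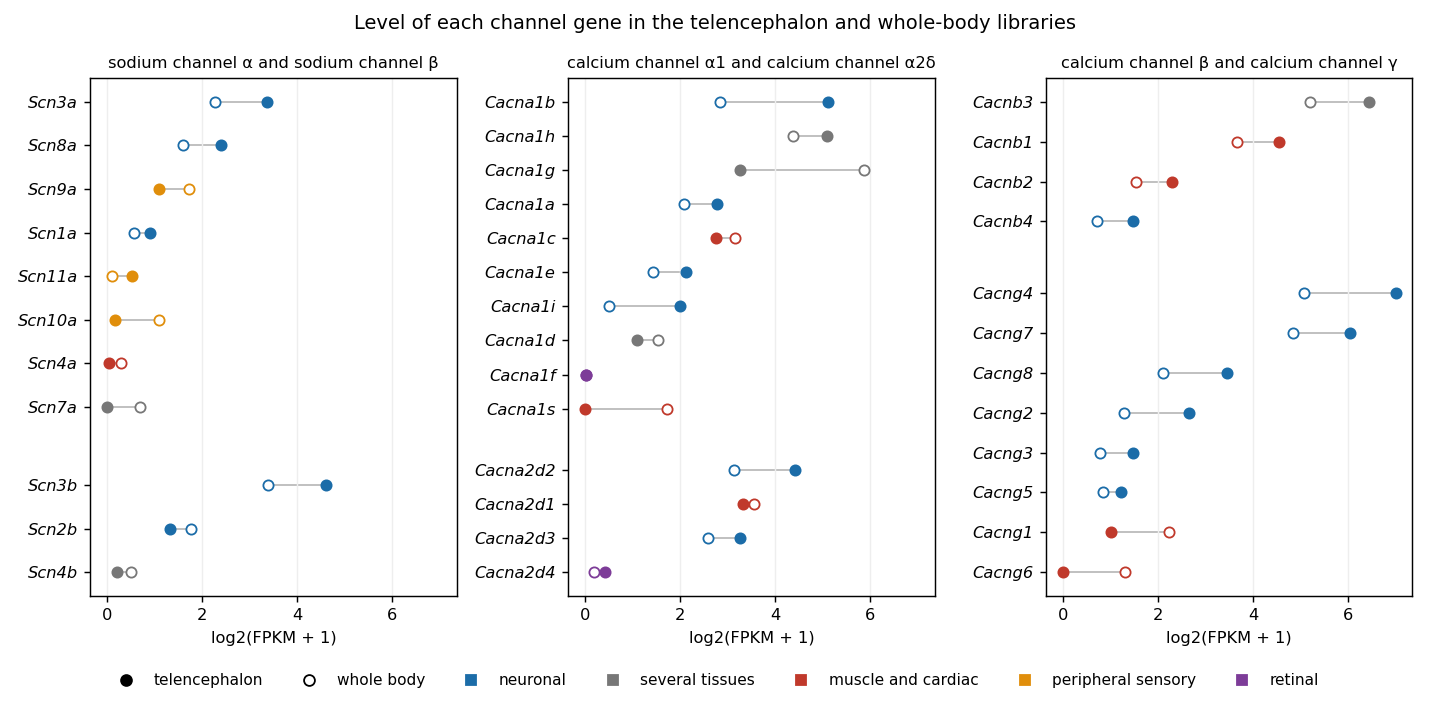
Level of 37 channel genes on the log2(FPKM + 1) axis, with filled circles for telencephalon and open circles for whole body, 1 library each, coloured by the tissue the subunit is best known from. Most neuronal genes have the filled circle to the right, while Cacna1g, Cacna1s, Cacng1 and Cacng6 have it to the left.

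**Figure D2:**
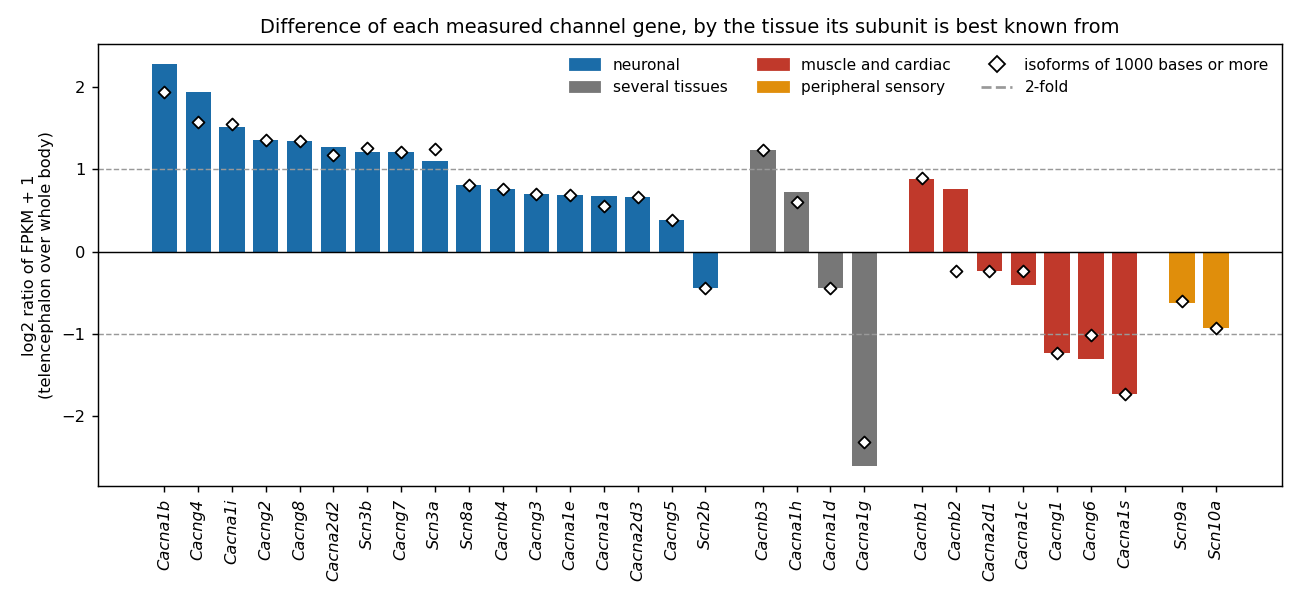
Log2 ratio of FPKM + 1, telencephalon over whole body, of 30 measured channel genes, grouped by tissue, with dashed lines at 2-fold and diamonds for the ratio from isoforms of 1000 bases or more. The bars of 9 neuronal genes and Cacnb3 pass the upper line, 3 muscle genes and Cacna1g pass the lower line, and the diamond of Cacnb2 lies on the other side of 0 from its bar.

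Among the sodium channel alpha genes, Scn3a had the highest level in both libraries. Scn3a, an alpha subunit known for its expression in embryonic brain (chromosome 2, 65457118 to 65567627 on GRCm38), had 9.31 FPKM in telencephalon, against 3.81 in whole body, a log2 ratio of 1.10. About 1340 and 586 fragments gave a depth-scaled ratio of 2.94 (95% interval 2.67 to 3.25). Scn8a, the main alpha subunit of mature axons, had 4.29 FPKM in telencephalon, against 2.03 in whole body. Scn1a, known from adult inhibitory neurons, was below the floor at 0.877 and 0.479 FPKM. Scn2a1, which the rule does not match, had 2.54 FPKM in telencephalon, against 1.41 in whole body (log2 ratio 0.55). All 4 central neuronal alpha genes were thus higher in telencephalon by 1.80-fold to 2.45-fold, and of these Scn3a alone passed 2-fold on the FPKM + 1 scale.

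The alpha genes of peripheral sensory neurons, which carry pain signals, did not share one direction. Scn9a had 1.14 FPKM in telencephalon, against 2.29 in whole body. Scn10a had 0.123 and 1.15 FPKM, from about 17 and 204 fragments. Its log2 ratio of -0.93 is within the 2-fold threshold only because of the added 1 FPKM, since the depth-scaled fragment ratio was 0.107 (95% interval 0.0612 to 0.176). Scn11a was higher in telencephalon, at 0.439 against 0.0803 FPKM, from about 55 and 13 fragments, and it was below the floor in both. Of 9 measured peripheral neuron markers 7 were lower in telencephalon and 1 was higher (summed level 55.2 against 87.8 FPKM). Prph, an intermediate filament of peripheral neurons, had 0.573 and 28.4 FPKM, while Isl1, which subpallial neurons also express, had 47.5 and 11.6 FPKM. The part of these cells in the 3 alpha genes was not tested.

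Scn4a and Scn7a were both below the floor of 1 FPKM. Scn4a, the skeletal muscle alpha subunit, had 0.0281 FPKM in telencephalon, against 0.228 in whole body. Its gene row is 2 times smaller than the sum of its isoforms in each library, so the ratio of its FPKM is the same either way, and it rested on about 8 and 83 fragments. Scn7a, a sodium sensor of glia and peripheral tissue that opens poorly with voltage, was at 0 in the telencephalon table and reached 0.607 FPKM in whole body, from about 124 fragments. At its length 3 fragments in telencephalon would be worth 0.0189 FPKM. Of 7 glia and Schwann markers 5 were lower in telencephalon and none was higher (summed level 7.83 against 37.4 FPKM), and their part in the value of Scn7a was not tested.

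Among the beta genes of sodium channels, Scn3b was at least 2-fold higher in telencephalon and had the highest level. Scn3b, a beta subunit of embryonic and adult brain, had 23.2 FPKM in telencephalon, against 9.48 in whole body (log2 ratio 1.21). It made up 86.5% of the summed beta FPKM in telencephalon and 56.3% in whole body. Scn2b, the disulphide-linked beta subunit of neurons, had 1.49 and 2.39 FPKM, and it was the only measured gene of the neuronal group below 0 (log2 ratio -0.44). Scn4b, the other disulphide-linked beta subunit, was below the floor at 0.153 and 0.413 FPKM. Scn2b and Scn4b thus had lower values in telencephalon, unlike Scn3b.

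The summed level of the 10 calcium channel alpha1 genes was nearly equal, at 94.5 FPKM in telencephalon, against 100 in whole body, but its make-up differed. Cacna1b, the N-type channel of presynaptic terminals (chromosome 2), had 33.6 FPKM in telencephalon, against 6.13 in whole body. Its log2 ratio of 2.28 was the highest of the 32 measured genes on the FPKM + 1 scale. About 3180 and 1033 fragments gave a depth-scaled ratio of 3.96 (95% interval 3.69 to 4.25). The ratio of FPKM was 5.48-fold. Isoforms under 1000 bases held 45.8% of its FPKM in telencephalon and 34.4% in whole body. Over isoforms of 1000 bases or more Cacna1b had 18.2 and 4.02 FPKM, and Cacna1h, with 24.7 and 15.9 FPKM, then had the higher level in telencephalon.

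The other presynaptic and dendritic alpha1 genes differed by about 2-fold or less. Cacna1a, the P/Q-type channel of cerebellum and synapses, had 5.82 FPKM in telencephalon, against 3.24 in whole body (log2 ratio 0.68). Cacna1e, the R-type channel, had 3.34 and 1.68 FPKM (log2 ratio 0.69). Together the P/Q-, N- and R-type genes summed to 42.8 FPKM in telencephalon and 11.1 in whole body, a 3.87-fold ratio that came to 3.07-fold over isoforms of 1000 bases or more.

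The low-voltage-activated T-type genes went in both directions. Cacna1g had 8.54 FPKM in telencephalon, against 57.2 in whole body, 6.70-fold lower (log2 ratio -2.61). About 1146 and 8443 fragments gave a depth-scaled ratio of 0.175 (95% interval 0.164 to 0.186). Cacna1g made up 9.04% of the summed alpha1 FPKM in telencephalon and 57.0% in whole body, and it is known from thalamus, cerebellum and the pacemaker cells of the heart. Cacna1h, a T-type channel of developing neurons and embryonic heart and muscle, had 33.2 FPKM in telencephalon, against 19.6 in whole body (log2 ratio 0.73). Cacna1i, the T-type channel most restricted to brain, had 3.01 and 0.412 FPKM, 7.30-fold higher. An isoform annotated for nonsense-mediated decay held 46.7% of Cacna1i in telencephalon and 1.9% in whole body. The coding isoform of 9781 bases had 1.47 and 0.318 FPKM. Within the T-type sum Cacna1h held 74.2% in telencephalon and 25.4% in whole body, whereas Cacna1g held 19.1% and 74.1%.

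The L-type genes summed to 6.88 FPKM in telencephalon and 12.1 in whole body. Cacna1s, the voltage sensor of skeletal muscle that triggers calcium release, was at 0 in the telencephalon table and reached 2.31 FPKM in whole body, from about 363 fragments. At its length 3 fragments in telencephalon would be worth 0.0233 FPKM. Cacna1c, the L-type channel of heart and smooth muscle that neurons also use, had 5.73 FPKM in telencephalon, against 7.92 in whole body (log2 ratio -0.41). Cacna1d, used by neurons, endocrine cells and the sinoatrial node, had 1.13 and 1.89 FPKM (log2 ratio -0.44). The L-type gene of the retina, Cacna1f, was near 0 in both libraries, at 0.0231 and 0.0239 FPKM. Of 5 measured eye markers 4 were lower in telencephalon and none was higher (7.26 against 57.8 FPKM). Thus no L-type gene was higher in telencephalon, and Cacna1s was the one past 2-fold.

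**Figure D3:**
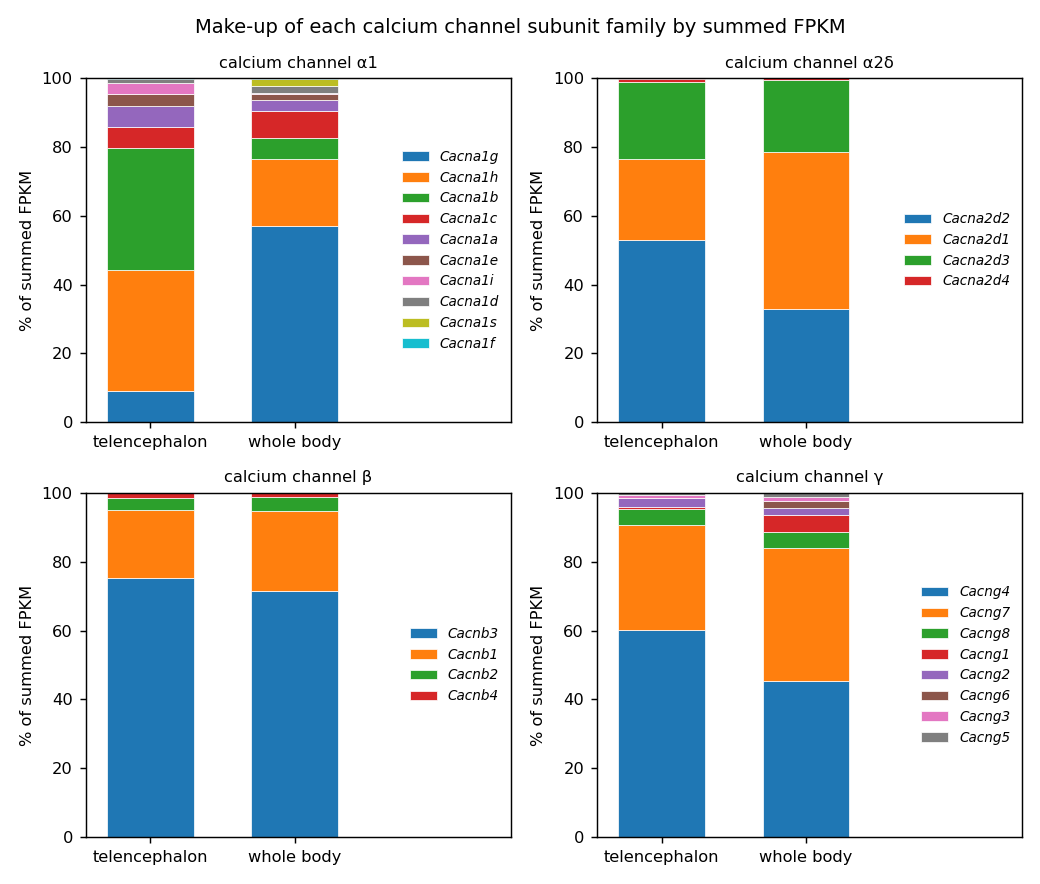
Share of each gene in the summed FPKM of its calcium channel subunit family, with telencephalon on the left and whole body on the right of each panel, 1 library each. Cacna1g fills 9.04% of the alpha1 sum in telencephalon, where Cacna1b and Cacna1h hold 35.6% and 35.2%, and 57.0% in whole body.

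Of 3 measured alpha2delta genes Cacna2d2 alone passed 2-fold. Cacna2d2, an alpha2delta gene of cerebellum and other neurons, had 20.2 FPKM in telencephalon, against 7.78 in whole body (log2 ratio 1.27). Cacna2d3, a gene of brain, had 8.54 and 4.98 FPKM (log2 ratio 0.67). Cacna2d1, the subunit of skeletal muscle and heart that brain also uses and that gabapentin binds, had 9.05 FPKM in telencephalon, against 10.8 in whole body (log2 ratio -0.24). Cacna2d2 held the largest share of the sum in telencephalon (53.0%, against 32.8% in whole body), while Cacna2d1 held 23.7% in telencephalon and the largest share, 45.7%, in whole body. Cacna2d4, of photoreceptors, was below the floor at 0.334 and 0.141 FPKM.

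All 4 calcium channel beta genes had higher FPKM in telencephalon, with Cacnb3 the leading gene in both libraries. Cacnb3, the most abundant, had 85.1 FPKM in telencephalon, against 35.7 in whole body (log2 ratio 1.23), 75.3% and 71.6% of the beta sum. Cacnb1, the beta subunit of the skeletal muscle complex that brain also uses, had 22.2 and 11.6 FPKM (log2 ratio 0.88). Cacnb4, a gene of cerebellum and cortex, had 1.77 and 0.635 FPKM (log2 ratio 0.76). Cacnb2, the beta subunit of heart, had 3.92 FPKM in telencephalon, against 1.91 in whole body (log2 ratio 0.76), but its direction rests on 1 short isoform. An isoform of 430 bases held 64.8% of Cacnb2 in telencephalon and next to none in whole body. Over isoforms of 1000 bases or more Cacnb2 had 1.38 FPKM in telencephalon, against 1.82 in whole body (log2 ratio -0.24).

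The gamma genes divided between neuronal and muscle members. The 6 TARP genes summed to 211 FPKM in telencephalon and 66.2 in whole body, and the 2 muscle genes to 1.01 and 5.20 FPKM. Over isoforms of 1000 bases or more the TARP sums were 142 and 52.9 FPKM, and the muscle sums 1.01 and 4.73 FPKM. Cacng4, the TARP of embryonic brain, had 127 FPKM in telencephalon, against 32.4 in whole body (log2 ratio 1.94). A non-coding isoform of 422 bases held 53.8% of it in telencephalon and 41.2% in whole body. The coding isoform had 58.7 and 19.1 FPKM, and about 4218 and 1768 fragments gave a depth-scaled ratio of 3.07 (95% interval 2.90 to 3.24). By gene rows Cacng4 thus ranked first of the 39 genes in telencephalon, but over isoforms of 1000 bases or more Cacnb3 (85.1 FPKM) and Cacng7 (65.0 FPKM) ranked above it.

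Cacng7, a TARP of the second type, had 65.0 FPKM in telencephalon, against 27.5 in whole body (log2 ratio 1.21). Cacng8, the main TARP of adult hippocampus, had 10.01 and 3.32 FPKM (log2 ratio 1.35). Cacng2, or stargazin, whose loss causes the stargazer mouse, had 5.29 and 1.44 FPKM (log2 ratio 1.36). It shares 323 exon bases with a gene on the other strand, A730060N03Rik, which had 2.90 and 0.529 FPKM, and the library kit does not mark strand. Cacng3, a TARP of cortex, had 1.80 and 0.721 FPKM, and Cacng5 had 1.33 and 0.795 FPKM. Every TARP gene thus had the higher FPKM in telencephalon, and 4 of the 6 passed 2-fold on the FPKM + 1 scale. Cacng3, 2.49-fold higher by FPKM, did not pass because of the added 1. On the muscle side, Cacng1, the gamma subunit of the skeletal muscle channel, had 1.01 FPKM in telencephalon, against 3.71 in whole body (log2 ratio -1.23). It still had about 21 fragments in telencephalon, against 101 in whole body. Cacng6, its relative in skeletal muscle and heart, was at 0 in the telencephalon table and reached 1.49 FPKM in whole body, from about 57 fragments, and 3 fragments in telencephalon would be worth 0.0805 FPKM.

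Some neighbouring channel genes had opposite signs and others the same sign. On chromosome 11, Cacng1, Cacng4 and Cacng5 lie on the minus strand within 212 kb (107703218 to 107915055), and their log2 ratios were -1.23, 1.94 and 0.38. On chromosome 7, Cacng7, Cacng8 and Cacng6 lie on the plus strand within 103 kb (3332955 to 3435667), with log2 ratios of 1.21, 1.35 and -1.31. In both gamma clusters the muscle gene was therefore lower in telencephalon and its neighbouring TARP gene higher. In the sodium channel cluster of chromosome 2, Scn3a, Scn2a1 and Scn1a had log2 ratios of 1.10, 0.55 and 0.34, while Scn9a and Scn7a at its other end had -0.62 and -0.68. On chromosome 9, Scn10a and Scn11a had -0.93 and 0.41, whereas Scn2b and Scn4b, within 36.4 kb elsewhere on that chromosome, had -0.44 and -0.29.

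Some coding exons took different shares of isoform FPKM in the 2 libraries. Of 25 channel genes with 1 FPKM or more in both libraries 21 have several annotated isoforms, and in 11 of these an isoform's share of the gene differed by 20 percentage points or more. That is 52.4%, beside 21.9% of all 8762 genes with the same floor and several isoforms, which were not matched for level or number of isoforms. Among them were Scn2b, Scn8a, Cacna1a, Cacna1b, Cacna1c, Cacna1d, Cacna1g, Cacna2d1, Cacnb1 and Cacnb2. Not all of these differ in coding sequence. Both Scn2b isoforms encode a protein of 214 amino acids, and in Cacna1a a retained-intron isoform held 19.8% in telencephalon and next to none in whole body. The FPKM of isoforms holding an exon was summed and set against that of alternative isoforms. These shares depend on how the authors' software divided reads among isoforms, so they carry no interval. The exon pairs were chosen after the isoform values were seen. Sequences below are from the GENCODE M21 transcripts on GRCm38, 5′ to 3′ on the coding strand, and capitals in a pair mark the positions at which its exons differ.

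Sodium channel genes hold a pair of mutually exclusive exons of 92 bases in the first domain, where the upstream exon is known as the neonatal form in several of these genes. In Scn8a the downstream exon (chr15:100959603-100959694, plus strand) was in 70.6% of the pair's FPKM in telencephalon and 43.0% in whole body. The upstream exon made up 29.4% and 57.0%. In Scn3a the downstream exon held 77.6% and 64.3%, but the upstream share came wholly from 1 isoform of 365 bases. In Scn9a the upstream exon held 99.6% in telencephalon and 100% in whole body. The downstream exon of Scn9a is in only 1 of 5 spanning isoforms, so this share depends on the annotation.

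The L-type genes Cacna1c and Cacna1d hold a pair of mutually exclusive exons of 104 bases that encode the sixth membrane segment of the first domain, and in both genes the upstream exon took the larger share in telencephalon. In Cacna1c the upstream exon (chr6:118742265-118742368, minus strand) held 78.3% of the pair's FPKM in telencephalon and 37.0% in whole body. In Cacna1d it (chr14:30171956-30172059, minus strand) held 98.9% in telencephalon and 52.8% in whole body. The Cacna1d shares rest on 2 isoforms, of 8068 and 8688 bases, from about 199 fragments in telencephalon and 442 in whole body. The downstream exons lie at chr6:118741871-118741974 and chr14:30171296-30171399. The total FPKM of both genes lay within 2-fold between the libraries. Both pairs are shown, with 32 differing positions in Cacna1c and 22 in Cacna1d.
Cacna1c upstream: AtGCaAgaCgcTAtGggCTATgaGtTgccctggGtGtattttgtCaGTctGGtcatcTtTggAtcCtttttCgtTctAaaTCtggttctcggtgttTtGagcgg
Cacna1c downstream: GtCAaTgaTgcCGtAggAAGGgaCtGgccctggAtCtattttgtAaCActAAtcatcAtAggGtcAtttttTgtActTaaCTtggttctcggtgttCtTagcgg
Cacna1d upstream: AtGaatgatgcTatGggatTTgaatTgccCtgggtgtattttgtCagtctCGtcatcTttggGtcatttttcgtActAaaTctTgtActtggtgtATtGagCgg
Cacna1d downstream: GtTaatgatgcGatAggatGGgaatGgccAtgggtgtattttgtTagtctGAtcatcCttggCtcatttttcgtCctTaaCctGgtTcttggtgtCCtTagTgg

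Exons that are included or skipped differed as well. The exon of 75 bases in Cacna1c (chr6:118715903-118715977), known from smooth muscle forms of the channel, was in 11.7% of the FPKM of spanning isoforms in telencephalon and 53.8% in whole body. In Cacna1g an exon of 69 bases (chr11:94439709-94439777, minus strand) was in 74.0% in telencephalon and 11.8% in whole body. In absolute level the Cacna1g isoforms with this exon were nearly equal, at 4.69 FPKM in telencephalon, against 4.27 in whole body, while all spanning isoforms had 6.34 and 36.1 FPKM. The lower Cacna1g level in telencephalon was therefore, among spanning isoforms, a difference in those without the exon. In Cacna2d1, whose splice forms are known to differ between brain and skeletal muscle, an exon of 21 bases (chr5:16341990-16342010, plus strand) was in 100% in telencephalon and 57.3% in whole body. The 3 exons are shown in capitals with 15 flanking coding bases on each side in lower case.
Cacna1c exon of 75 bases: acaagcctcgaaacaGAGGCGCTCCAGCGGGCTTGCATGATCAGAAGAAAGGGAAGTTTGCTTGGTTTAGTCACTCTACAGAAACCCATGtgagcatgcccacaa
Cacna1g exon of 69 bases: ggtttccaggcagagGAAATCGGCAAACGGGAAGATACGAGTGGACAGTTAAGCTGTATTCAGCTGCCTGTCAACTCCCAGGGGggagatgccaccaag
Cacna2d1 exon of 21 bases: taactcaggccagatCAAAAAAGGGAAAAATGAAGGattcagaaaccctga

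**Figure D4:**
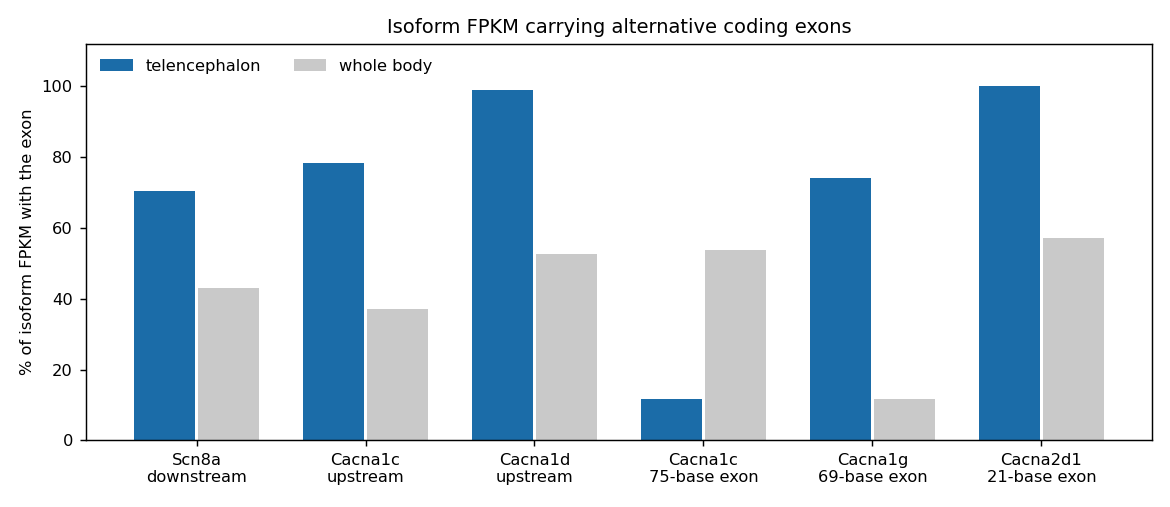
Percent of isoform FPKM that carries an alternative coding exon, with telencephalon on the left and whole body on the right of each pair, for exons of mutually exclusive pairs (percent of the pair) and for included or skipped exons (percent of spanning isoforms). Telencephalon is higher for 5 of the 6 exons drawn, and lower for the 75-base exon of Cacna1c. Only the exon with the higher share in telencephalon is drawn from each pair, and its partner goes the other way.

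In Cacnb1 an isoform of 596 amino acids held 95.4% of the gene's FPKM in telencephalon and 62.6% in whole body. The isoforms of 476 and 478 amino acids held 1.55% and 0.0144% in telencephalon and 16.4% and 19.4% in whole body. Cacnb1 thus had 1 main coding isoform in telencephalon and several in whole body, on about 1503 and 830 fragments.

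Genes whose products bind or anchor these channels were described from lists. Of 12 sodium channel partners 11 were measured, with 6 higher in telencephalon and none lower, beside 9.39% and 21.2% of all measured genes. Their median log2 ratio was 1.10, beside -0.16 over all measured genes. Fgf14, an intracellular FGF that binds the sodium channel tail, had 7.0 FPKM in telencephalon, against 0.885 in whole body. Nrcam, an adhesion molecule of the axon initial segment and nodes, had 16.2 and 4.46 FPKM. At the other end Fgf12 had 1.69 and 1.74 FPKM, and Rangrf, a Ran-binding protein, at 8.68 and 13.0 FPKM. Of the sodium leak channel complex 3 genes were measured, and 2 of them were higher, beside the same 9.39% of all measured genes. Unc79 had 11.6 FPKM in telencephalon, against 2.12 in whole body, and Fam155a had 9.30 and 2.98 FPKM. The pore gene Nalcn had 3.35 and 1.20 FPKM.

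Of 18 measured calcium channel partners 3 were higher in telencephalon and 5 lower, with a median log2 ratio of -0.30. Over all measured genes 9.39% were higher and 21.2% lower, with a median of -0.16, so the lower share and the median lay near those of all genes. Jph4, a junctophilin of neurons that ties the surface membrane to the endoplasmic reticulum, had 30.8 FPKM in telencephalon, against 6.66 in whole body, and Rims2, a scaffold of the presynaptic active zone, at 6.69 and 1.69 FPKM. Jph2, the junctophilin of heart and skeletal muscle, had 0.0907 FPKM in telencephalon, against 3.92 in whole body. Stac3, which skeletal muscle needs for its Cacna1s channel, had 0.534 and 4.91 FPKM. The lower partners named here are muscle genes. The skeletal muscle markers were also lower in telencephalon, as were Cacna1s, Cacng1 and Cacng6. The other 5 measured muscle and cardiac subunits lay within 2-fold. The part of muscle cells in these values was not tested.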

How the data were processed

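RNA was sequenced on a HiSeq 2000 after a TruSeq RNA v2 preparation, per the labels' protocols. The authors deposited FPKM per gene and per isoform, made with TopHat, Cufflinks and Cuffdiff on GRCm38, per the submitters' processing notes. Versions and the annotation release are not given in the sources used here. Because FPKM are not counts, no count model was run, and with 1 library per group no test was made. The members, tissue groups and gene lists were chosen with earlier results of these data known. Some items are not reported here, though group counts and medians include them. The other measured members are named, and genes are taken from each list by a rule, the 2 highest and 2 lowest measured genes by log2 ratio.

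Lengths, exons and coordinates came from GENCODE M21 by Ensembl identifier. Depth and the bases subtracted from each length (333 in telencephalon, 319 in whole body) were fitted so that low values of single-isoform genes gave whole fragments. Of such genes of 2000 bases or more under 20 fragments, 88.7% and 86.4% came out whole within 0.1 fragments, genes of the fit included. Exons of 10 members overlap a gene on the other strand, and the kit does not mark strand. Log2 ratios used a pseudocount of 1 FPKM. Alternatives changed the pseudocount, floor, threshold, scaling, isoform lengths and group definitions. Python 3.11.15, pandas 2.3.3 and scipy 1.17.1 were used. Depth fit and 2-fold counting were tested on simulated data.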

Additional observations from a re-analysis of the deposited data

How the results depend on the processing

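No paired analysis was possible because each group has 1 library. The 14 genes past 2-fold kept their direction and stayed past 2-fold under each of the 7 alternatives run for single genes. Cacnb2 alone among the other measured genes changed sign, with isoforms of 1000 bases or more (log2 ratio -0.24), an alternative chosen after seeing the data. A pseudocount of 0.1 FPKM and rescaling to TPM each gave 15 higher and 6 lower genes, and a 4-fold threshold gave 1 and 1, while a floor of 5 FPKM left 1 lower gene (Cacna1g). The neuronal median was 1.27 with the pseudocount of 0.1, 1.24 in TPM, 1.26 with the median of all genes set to 0, 0.95 with no floor, 1.24 with a floor of 5 FPKM, 0.95 with Scn2a1 included (also chosen after seeing the data) and 0.78 for the narrower group. The muscle and cardiac median was -0.19 in TPM, -0.17 with the median of all genes set to 0, and -1.27 for the narrower group. TPM moved the median of all measured genes to -0.02, against -0.16 as deposited. Depth limits the weak genes: 3 fragments on a transcript of 7000 bases are worth 0.0198 FPKM in telencephalon and 0.0154 in whole body.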

Other observations

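In Scn2a1, the sodium channel alpha gene that the name rule leaves out, the leading isoform differed between the libraries although both encode a protein of 2005 amino acids. The isoform of 8690 bases held 77.9% of the gene in telencephalon and 18.4% in whole body, and that of 8935 bases 22.1% and 74.2%. Both carry the upstream 92-base exon, which held 100% of the pair's FPKM in each library. The downstream exon was counted in only 1 isoform, of 1810 bases, so this share depends on the annotation. In the N-type gene Cacna1b a coding exon of 12 bases was in 67.0% of the spanning FPKM in telencephalon and 30.2% in whole body, and one of 6 bases in 33.0% and 69.8%.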
